A study of Mus musculus with 3 samples.

Results

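Expression of 9 early B lineage genes was examined in 3 RNA-seq libraries, 1 per condition. The genes were taken by name: Ebf1, Pax5, Cd79a, Cd79b, Vpreb1, Igll1, Rag1, Il7r and Blnk, out of 16742 gene IDs listed in any library. Of these 9 genes, 8 were listed in at least 1 library and Pax5 in none. The control library came from lin- bone marrow cells of wild type C57BL/6 mice, that is, marrow cells left after depletion of cells with lineage markers. The markers depleted are not listed in the sources used here. How many early B cells this depletion took out of control is therefore not known, and every ratio to control carries this limit. The TR1 and TR9 libraries came from GFP+ bone marrow cells of TBLR1-RARa (TR) leukemia mice on the C57BL/6 background, sorted in the third transplant generation. Cells of 3 mice went into each library, and the mice of all groups are labelled as 6 to 8 weeks old. TR was expressed from a retrovirus that also carries GFP, and each TR line goes back to a single primary leukemia mouse. The control cells were neither transduced nor transplanted, and they were isolated by depletion and not by a GFP sort, so fusion, vector, transplantation and isolation cannot be told apart.

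B cells arise in the bone marrow from lymphoid progenitors in ordered steps. Interleukin-7 receptor signals and the transcription factors E2A, EBF1 and PAX5 commit a progenitor to the B lineage, and the RAG recombinase then joins the segments of the immunoglobulin heavy chain gene. The new heavy chain is tested at the surface as the pre-B receptor, in which VpreB and λ5 (the products of Vpreb1 and Igll1) stand in for a light chain, CD79a and CD79b carry the signal inwards, and the adaptor BLNK passes it on.

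The genes of this programme did not move together. Igll1 rose strongly in both leukemias and Vpreb1 rose in TR9, whereas Cd79b, Blnk and Il7r fell in both. Pax5 was at 0 in all 3 libraries, and Ebf1 did not exceed 2 expected counts in any. Igll1 and Vpreb1 lie side by side and had more counts in both TR libraries than in control, whereas Cd79a and Blnk had fewer. Of these differences, those of Vpreb1 in TR1 and of Cd79a in both leukemias were not called. The sequences before the starts of these 4 members are shown. Each runs from 250 bases before to 50 bases after the RefSeq start, in the build GRCm38.p6. Capitals mark the E-box CANNTG, the short site of E proteins such as E2A, in runs of 6 letters, and the core CCCNNGGG of the EBF1 site in a run of 8. Both motifs read the same on either strand, and no match of one overlapped the other.
Igll1, chr16:16863936-16864235, minus strand: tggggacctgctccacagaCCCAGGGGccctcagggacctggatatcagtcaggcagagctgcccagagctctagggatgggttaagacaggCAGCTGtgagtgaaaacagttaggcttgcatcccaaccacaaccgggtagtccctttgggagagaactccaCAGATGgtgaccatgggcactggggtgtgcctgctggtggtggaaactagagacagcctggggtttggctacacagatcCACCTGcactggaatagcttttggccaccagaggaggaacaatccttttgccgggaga
Vpreb1, chr16:16869206-16869505, minus strand: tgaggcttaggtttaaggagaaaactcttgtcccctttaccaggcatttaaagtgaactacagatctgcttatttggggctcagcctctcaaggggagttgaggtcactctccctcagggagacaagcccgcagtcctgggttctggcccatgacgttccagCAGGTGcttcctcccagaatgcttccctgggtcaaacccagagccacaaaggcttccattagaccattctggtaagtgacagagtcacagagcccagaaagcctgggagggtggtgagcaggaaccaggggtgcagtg
Cd79a, chr7:24897247-24897546, plus strand: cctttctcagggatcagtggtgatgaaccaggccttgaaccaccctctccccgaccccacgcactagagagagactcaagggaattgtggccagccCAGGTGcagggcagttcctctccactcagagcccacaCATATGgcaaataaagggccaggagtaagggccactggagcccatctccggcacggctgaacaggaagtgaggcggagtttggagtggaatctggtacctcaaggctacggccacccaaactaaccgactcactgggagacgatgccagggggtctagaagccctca
Blnk, chr19:40994172-40994471, minus strand: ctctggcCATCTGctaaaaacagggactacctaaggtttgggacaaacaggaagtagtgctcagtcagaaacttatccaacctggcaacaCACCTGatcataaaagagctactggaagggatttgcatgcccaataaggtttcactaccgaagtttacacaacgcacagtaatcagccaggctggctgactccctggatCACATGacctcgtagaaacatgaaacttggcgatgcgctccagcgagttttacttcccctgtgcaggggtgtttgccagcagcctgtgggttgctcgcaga

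RefSeq promoters were found for 8 of the 9 genes, 9 windows in all, and Cd79b had none in the table. At least 1 E-box was present in 8 of these 9 windows, against 72.3% of the 32851 promoters of the same length in the table. The EBF1 core was present in 1 of the 9, that of Igll1, against 13.7% of all promoters. Its first base lies at −231 from the start of Igll1, and the 3 E-boxes begin at −158, −87 and −8. Vpreb1 held 1 E-box, Cd79a 2 and Blnk 3. The genes with more counts in TR cells than in control and those with fewer thus both had E-boxes, and a match of letters is a description only. Only exact matches were marked and counted, so sites that depart from these letters are missed. A window scored without the EBF1 core, such as that of Cd79a, may therefore still hold a site. The expression files hold no coordinates, and the submitters' processing notes name mm9, so these positions belong to the reference and not to the files.

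The unit for differences is the log2 ratio of FPKM (fragments corrected for the length of the transcript and the size of the library), with values under 0.01 set to 0.01, and each 95% interval is the exact binomial (Clopper-Pearson) interval of the expected counts, which covers counting error only. A gene was called when the exact Poisson test gave a false discovery rate of at most 0.001 over all listed genes and the log2 ratio was at least 1 in size. This test compares the reads of 2 libraries, not the conditions, and no difference here has a replicate check. Totals were 5488778 expected counts in control against 5571409 in TR1 and 5129662 in TR9. A count of 0 allowed up to 3 counts, or 0.547 ppm of the control total, 0.538 ppm of TR1 and 0.585 ppm of TR9. A fold given as at least takes the control count as read and is thus not a 95% bound. Of all genes, 13.0% were called lower and 8.09% higher in TR1 than in control, and 10.8% and 9.37% in TR9. Lower genes made up 61.7% of the calls in TR1 and 53.6% in TR9. With TMM scaling these shares were 48.4% and 46.7%, and in TR1 the share was 73.3% with TPM scaling. TMM scaling moved the log2 ratio of genes with reads in both libraries by 0.25 (TR1) or 0.11 (TR9). Genes at 0 in either library moved less, because the floor stayed fixed. No member changed direction under any scaling tried, since every member ratio was larger in size than the shift. Rara, part of the fusion, had 58.88 expected counts in control against 1167.89 in TR1 and 358.74 in TR9, and Tbl1xr1, which encodes TBLR1, had 853.61, 1185.93 and 980.81; how many of these reads came from the vector was not tested. The granulocyte proteases and myeloperoxidase (Elane, Prtn3, Ctsg, Mpo) summed to 4100.39 FPKM in control against 20452.44 in TR1 and 23289.18 in TR9. The progenitor markers Kit and Cd34 summed to 149.32, 34.93 and 66.89 FPKM, and 4 erythroid genes to 1561.4, 3.45 and 4.81 FPKM. The part of these marker levels in the results was not tested. In bulk RNA, fewer cells of a type and less RNA per cell cannot be told apart.

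Igll1 (NCBI Gene ID 16136) encodes λ5, the part of the surrogate light chain that bonds to the heavy chain. It had 2 expected counts in control against 63 in TR1 and 847 in TR9. As a length-scaled level this was 0.43, 13.3 and 194.53 FPKM. Both leukemia libraries were thus above control, and TR9 was far above TR1. Against control, the log2 ratio reached 4.95 for TR1 (95% interval 3.04 to 8.03) and 8.82 for TR9 (6.97 to 11.87). On the linear scale the count ratio in TR9 was 453 (125 to 3750), wide because control held only 2 counts. Between the leukemias, Igll1 was 14.6-fold higher in TR9 than in TR1 (11.3 to 19.2), and this difference was called. In TR9, Igll1 ranked 292 among 14817 listed genes by FPKM, and in control 12512 among 15302. Its ratio in TR9 ranked 52 from the top of 16303 genes.

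Vpreb1 (Gene ID 22362) encodes VpreB1, the second component of the surrogate light chain. It had 1 expected count in control against 14 in TR1 and 20 in TR9, or 0.24, 3.35 and 5.2 FPKM. Both TR libraries were higher than control and close to each other. The log2 ratio was 4.44 in TR9 (1.78 to 9.79), which was called by the Poisson test but not by edgeR's exact test at an assumed coefficient of variation of 0.2 (adjusted p = 0.00164). In TR1 it was 3.80 (1.07 to 9.19) with a false discovery rate of 0.00255 by the exact Poisson test, which missed the threshold. Under TMM scaling it passed (log2 ratio 4.05, adjusted p = 0.000906). The ratio of TR9 to TR1 was 1.55 with an interval of 0.745 to 3.32, so a difference between the leukemias was not detectable at this depth. The FPKM of Igll1 was 3.97 times that of Vpreb1 in TR1 and 37.4 times in TR9. Surrogate light chain RNA in TR9 was thus almost all Igll1. The related genes Vpreb2 and Vpreb3 had few reads: Vpreb2 had 1 count in control and 0 in both TR libraries, and Vpreb3 had 1, 1 and 3. Vpreb1 and Vpreb2 are near copies, and how RSEM divided reads between them bears on both, although all their counts were whole numbers.

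**Figure D1:**
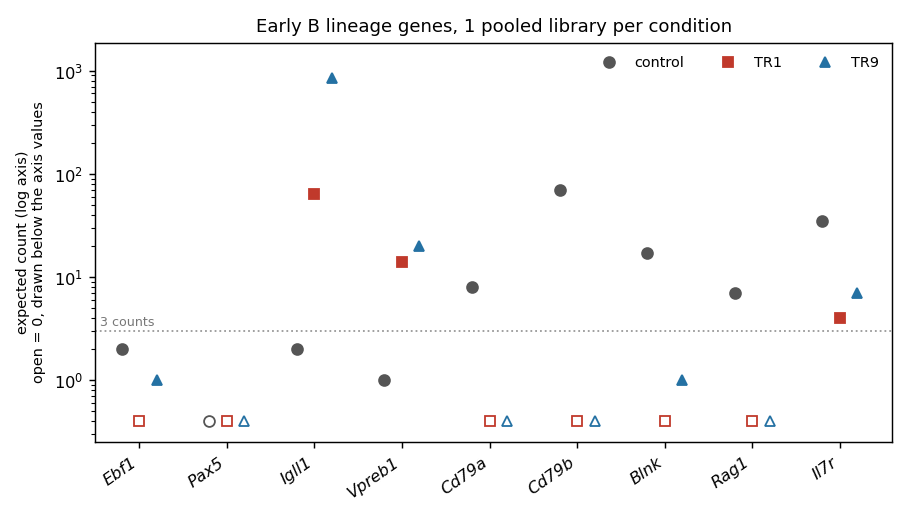
Expected counts of the 9 early B lineage genes on a log axis, with 1 point per library (control, TR1, TR9) and open symbols for a count of 0; the dotted line marks 3 counts. Igll1 climbs from 2 in control to 63 in TR1 and 847 in TR9, whereas Cd79b stands at 69 in control and 0 in both leukemias.

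CD79a and CD79b form the signalling pair of the pre-B and B cell receptors. Cd79b (Gene ID 15985) had 69 expected counts in control, or 10.34 FPKM, and 0 in TR1 and in TR9. It was the most highly expressed member in control per length. Against the limit of 3 counts, Cd79b fell in both, by at least 23.3-fold for TR1 and at least 21.5-fold for TR9. Cd79a (Gene ID 12518) had 8 counts in control (1.11 FPKM) and 0 in both leukemias. Its fold, at least 2.71 in TR1 and 2.49 in TR9, was not called, with false discovery rates of 0.0155 and 0.0217 by the exact Poisson test. The heterodimer partners thus differed in level already in control, and neither had a read in TR cells.

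Blnk (Gene ID 17060) encodes the adaptor that links the receptor-bound kinase SYK to BTK and PLCγ2. It had 17 expected counts in control against 0 in TR1 and 1 in TR9. Blnk fell in TR1, by at least 5.75-fold, and in TR9, with a log2 ratio of −4.04 (−9.37 to −1.32). The call in TR9 was lost under TMM scaling, where the log2 ratio was −3.93 with an adjusted p of 0.00116 by the exact Poisson test. With edgeR's exact test at an assumed coefficient of variation of 0.2, Blnk missed the threshold in both (adjusted p = 0.00116 and 0.0071).

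Il7r (Gene ID 16197) encodes the α chain of the interleukin-7 receptor, which B and T progenitors both use. It had 35.06 expected counts in control against 4 in TR1 and 7.06 in TR9, or 1.97, 0.22 and 0.42 FPKM. Both leukemias were below control. Il7r fell, with log2 ratios of −3.16 (−5.10 to −1.67) for TR1 and −2.23 (−3.64 to −1.03) for TR9. The TR9 call was lost with edgeR's exact test at an assumed coefficient of variation of 0.2 (adjusted p = 0.0108). The fractions in these counts come from RSEM's division of reads that match several genes. TR9 and TR1 differed by a ratio of 1.92 with an interval of 0.483 to 8.85, which holds 1.

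Rag1 (Gene ID 19373), the catalytic subunit of the recombinase, had 7 counts in control but 0 in both leukemias. This was not called in either, with false discovery rates of 0.0295 in TR1 and 0.0398 in TR9 by the exact Poisson test. Ebf1 (Gene ID 13591), which with E2A switches on the B programme, had 2, 0 and 1 counts. All 3 values lie at or under the limit, so no fold is given. Pax5 (Gene ID 18507), which holds cells to the B lineage, was listed in no library. The presence of Igll1 RNA in TR cells was therefore measured beside Ebf1 and Pax5 at 0 or 1 count.

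Counted over the members, 3 of the 8 listed genes were lower and 1 was higher in TR1, against 13.0% and 8.09% of all genes (21.1% either way). In TR9, 3 were lower and 2 higher, against 10.8% and 9.37% (20.2% either way). Called in both leukemias were 3 lower genes (Cd79b, Blnk, Il7r), against 8.39% of all genes, and 1 higher gene (Igll1), against 5.67%. In the direct comparison, 1 of 5 genes listed in TR1 or TR9 was higher in TR9 (Igll1), against 4.34% of all genes, and 0 were lower, against 2.31% (6.65% either way). The median log2 ratio of the members was −4.12 in TR1 and −3.13 in TR9, beside −0.29 and −0.12 over all genes. These medians depend on the value put in place of 0. With counts under 3 set to 3 they were −1.34 and −1.22, with a pseudocount of 1 FPKM −0.66 in both, and with a floor of 0.001 FPKM −7.45 in TR1 and −3.13 in TR9. The comparisons of TR1 and of TR9 share the control library. The 7 members other than Igll1 and Vpreb1, grouped after their values were seen, summed to 15.25 FPKM in control against 0.22 in TR1 and 0.6 in TR9. Igll1 and Vpreb1 summed to 0.67, 16.65 and 199.73 FPKM, which was 4.21%, 98.7% and 99.7% of the members' total.

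**Figure D2:**
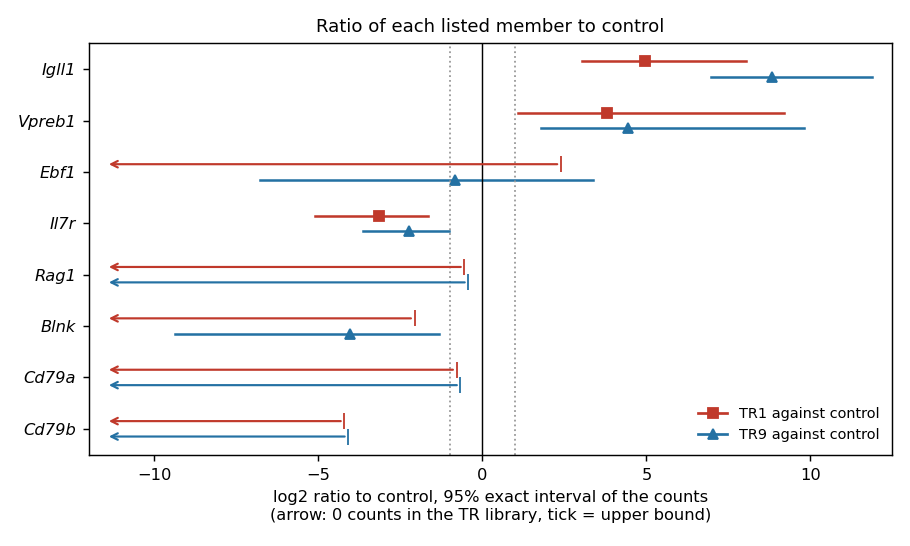
Log2 ratio to control of the 8 listed members in TR1 (squares) and TR9 (triangles), with lines for the 95% exact interval of the counts; an arrow stands for a TR library at 0, its tick for the upper bound, and dotted lines mark a log2 ratio of 1 in size. Igll1 and Vpreb1 lie to the right of 0 with their whole intervals, Ebf1 spans 0, and the other 5 genes lie to the left.

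Igll1 and Vpreb1 are neighbours on mouse chromosome 16. In GENCODE M21 (GRCm38), Igll1 spans chr16:16860671-16863985 with 3 exons and Vpreb1 spans chr16:16868403-16870843, both on the minus strand with 4417 bases between them. The RefSeq start of Vpreb1 lies inside the GENCODE span, so the window printed for it does too. To see whether a high ratio was shared along the chromosome, the 8 genes on either side that RefSeq annotates as protein-coding were read off in order, a choice made after the values of Igll1 were seen. Of these 16 genes, 15 were listed. In TR1, 3 were called higher and 0 lower, against 8.09% and 13.0% of all genes. In TR9, 3 were higher and 0 lower, against 9.37% and 10.8%. The log2 ratios of these neighbours ran from −2.25 to 1.71 in TR1 and from −1.08 to 2.32 in TR9. All were below those of Igll1 and Vpreb1. Top3b, a topoisomerase gene next to Vpreb1, had 617 expected counts in control against 1223 in TR1 and 1384 in TR9, with log2 ratios of 0.96 and 1.26, the latter called. Ppm1f, a phosphatase gene, rose in both, with 1.29 and 1.16. Fgd4, an exchange factor for a small GTPase on the other side, also rose in both, with 1.67 and 1.07, the latter not called with TPM scaling. Rpl31-ps12, the gene next to Igll1, carries the symbol of a ribosomal protein pseudogene although RefSeq annotates it as protein-coding. It had 301.23, 664.22 and 232.97 counts, whose fractions come from reads shared with other genes. Its log2 ratios were 1.12, which was called but falls below the threshold with TPM scaling, and −0.27. Vpreb1 and Top3b overlap by 108 bases in GENCODE on opposite strands, and whether counting used strand is not given in the sources used here. The files count Vpreb1 on a single transcript of 772 bases, and Igll1 on one of 870 bases.

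**Figure D3:**
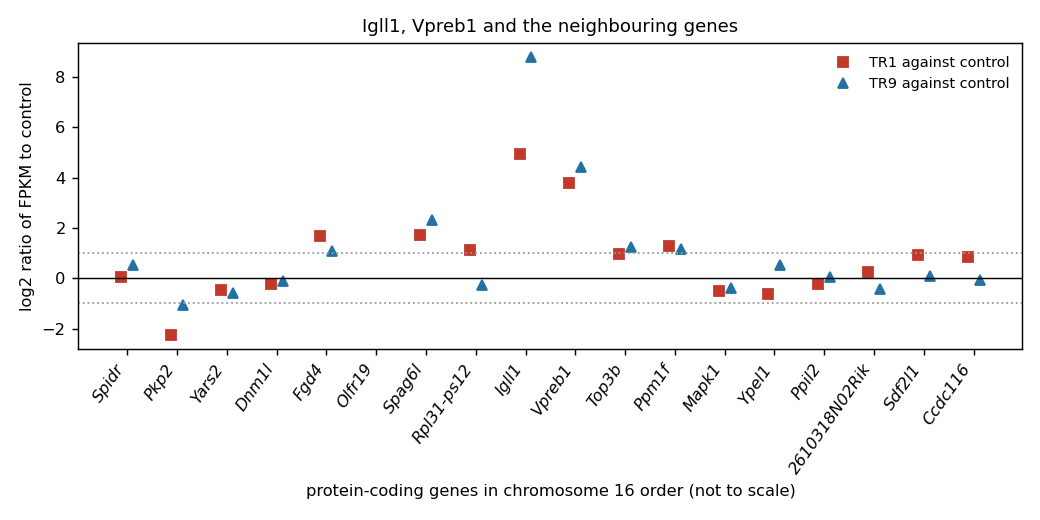
Log2 ratio of FPKM to control in TR1 (squares) and TR9 (triangles) for Igll1, Vpreb1 and the 8 genes annotated as protein-coding on either side, in chromosome order and not to scale; dotted lines mark 1 in size, and Olfr19 was listed in no library. Igll1 (4.95 and 8.82) and Vpreb1 (3.80 and 4.44) stand above the others, which reach 2.32 at most.

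Transcription factors that act on these genes were then described from a list of 20, of which 19 were listed. In TR1, 8 were lower and 2 higher, against 13.0% and 8.09% of all genes. In TR9, 6 were lower and 3 higher, against 10.8% and 9.37%. Lower in both were Tcf3, Ikzf1, Ikzf3, Foxo1, Pou2af1 and Irf4. Tcf3, which encodes E2A, had 1193 expected counts in control against 369 in TR1 and 498 in TR9, with log2 ratios of −1.72 (−1.89 to −1.54) and −1.17 (−1.32 to −1.01). Ikzf3 (Aiolos), a factor of pre-B cells, had 35 counts in control and 0 in both leukemias, at least 11.8-fold and 10.9-fold lower. Pou2af1, a coactivator of B cells, had 27, 0 and 0 counts, and Irf4, which limits pre-B cell growth, had 16, 0 and 0. With TMM scaling, 6 genes of this list were lower in TR1 instead of 8, and the call on Ikzf1 was among those lost. The list's median was −1.23 in TR1 and −0.87 in TR9.

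The genes called higher in both leukemias were Id1 and Id2, whose products bind E proteins such as E2A and keep them off DNA. Id1 had 9 expected counts in control against 138 in TR1 and 111 in TR9, with log2 ratios of 3.92 (2.95 to 5.08) and 3.72 (2.75 to 4.89). Id2 had 27, 332 and 101 counts, so that it rose 12.1-fold (8.18 to 18.7) in TR1 and 4.0-fold (2.6 to 6.37) in TR9, and was lower in TR9 than in TR1 by a log2 ratio of −1.60 (−1.93 to −1.27). The third family member in the list, Id3, had 7 counts in control and 0 in both leukemias, which was not called. Irf8, a factor of B cells and monocytes named here after its values were seen, had 1059 counts in control against 39 in TR1 and 644 in TR9. It was lower in TR1 by a log2 ratio of −4.79 (−5.28 to −4.32), and 17.9-fold higher in TR9 than in TR1 (13.0 to 25.5). Spi1 (PU.1), used by myeloid and B cells and also named after its values were seen, had 434, 733 and 1690 counts and rose in TR9, with a log2 ratio of 2.06. Igll1, Irf8 and Spi1 were all higher in TR9 than in TR1, and a link between them was not tested. Of the 15 genes of this list that were listed in TR1 or TR9, 3 were called higher in TR9, Irf8 and Spi1 among them. Only 1 was lower (Id2), and over all genes 4.34% were higher and 2.31% lower. With TMM scaling, 2 genes of the list were higher.

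**Figure D4:**
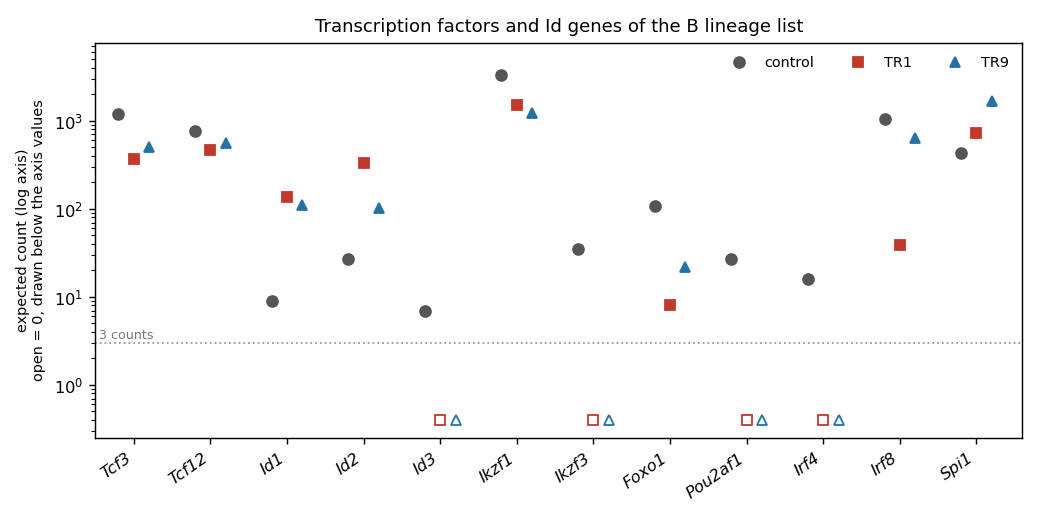
Expected counts of 12 transcription factor and Id genes on a log axis in control (circles), TR1 (squares) and TR9 (triangles), with open symbols for 0 and a dotted line at 3 counts. Id1 and Id2 stand higher in both leukemias, Ikzf3, Pou2af1 and Irf4 are at 0 there, and Irf8 has 39 counts in TR1 against 1059 in control and 644 in TR9.

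Around the pre-B receptor, the wider list of 22 genes was listed in full. In TR1, 3 genes were lower and 4 higher, against 13.0% and 8.09% of all genes. In TR9, 4 were lower and 4 higher, against 10.8% and 9.37%. The kinases Syk and Btk, which act below the receptor and also in myeloid cells, were called in neither leukemia, with 1256, 1109 and 1060 expected counts for Syk and 1087, 773 and 722 for Btk. Prkcb, a protein kinase C gene, rose in both, with log2 ratios of 1.84 and 2.54, and Dapp1, an adaptor, fell in both, with −1.22 and −1.19. With TMM scaling, the list held 2 lower and 6 higher genes in TR1, where the call on Dapp1 was lost. Cd22, an inhibitory receptor of B cells, had 51.06, 52.54 and 52.04 counts and was not called. The list's median was −0.29 in TR1 and −0.61 in TR9.

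Of 12 genes of V(D)J recombination and end joining, 1 was lower in TR1 and 3 in TR9, against 13.0% and 10.8% of all genes. In both, 0 were higher, against 8.09% and 9.37%. Dntt, the polymerase that adds bases at the joins, had 155 counts in control but 0 in both leukemias, a drop of at least 52.4-fold for TR1 and 48.3-fold for TR9. Rag2, the partner of Rag1, had 11, 1 and 1 counts and was not called. In TR1 the balance of this list moved with the scaling, from 1 lower and 2 higher genes with TMM to 3 lower and 0 higher with TPM. The list's median was −0.25 in TR1 and −0.54 in TR9, near the median of all genes in TR1.

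In the interleukin-7 receptor pathway, all 15 genes of the list were listed. In TR1, 4 were lower and 5 higher, against 13.0% and 8.09% of all genes. In TR9, 3 were lower and 5 higher, against 10.8% and 9.37%. Il2rg, the common γ chain that pairs with the product of Il7r, rose from 252 expected counts in control to 784 in TR1 and 611 in TR9, with log2 ratios of 1.61 (1.41 to 1.83) and 1.37 (1.16 to 1.59). The chains of this receptor thus differed in direction, with Il7r lower and Il2rg higher in both. Il2rg serves other cytokine receptors as well. Socs3, a feedback inhibitor, had 7, 76 and 97 counts, with log2 ratios of 3.43 and 3.90. Tslp, a cytokine whose receptor also contains the product of Il7r, had 6, 40 and 37 counts, with 2.71 and 2.72. Bcl2, the survival gene downstream of interleukin-7, fell from 416.73 to 74.96 and 170.88 counts, with −2.50 and −1.19. Stat5a fell from 862.11 to 274.63 and 317.88 counts, with −1.68 and −1.35. The list's median was 0.11 in TR1 and 0.78 in TR9, and in TR1 it was −0.02 with counts under 3 set to 3.

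**Figure D5:**
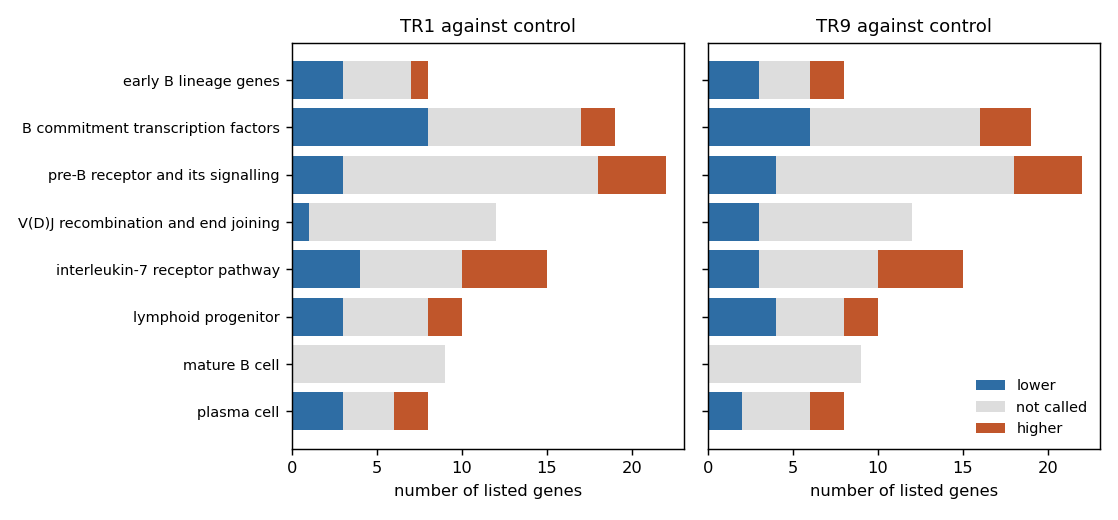
Number of listed genes called lower, not called and called higher against control in TR1 and in TR9, for the early B lineage genes and 7 related gene lists, some of which share genes. In the list of B commitment transcription factors 8 and 6 genes are lower, against 13.0% and 10.8% of all genes. In the mature B cell list no gene is called by the exact Poisson test in either library.

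Lists for the stages before and after the pre-B cell were set beside the members. Over all genes, 13.0% were called lower and 8.09% higher in TR1, and 10.8% and 9.37% in TR9. Of 10 lymphoid progenitor genes, 3 were lower and 2 higher in TR1, and 4 lower and 2 higher in TR9, with medians of −3.36 and −2.76, or −1.0 and −1.2 with counts under 3 set to 3. Cd27 fell from 149 expected counts in control to 1.39 in TR1 and 1 in TR9. Flt3, a receptor of lymphoid and myeloid progenitors, moved in opposite directions, as did 0.113% of all genes. It had 327 counts in control against 792 in TR1 and 126 in TR9, with log2 ratios of 1.25 (1.07 to 1.44) and −1.28 (−1.59 to −0.98). Of 10 mature B cell genes, 9 were listed and 0 were called in either leukemia, with medians of −2.08 and −1.79, or −0.02 and 0.1 with counts under 3 set to 3. Their FPKM summed to 3.68 in control against 3.18 in TR1 and 3.34 in TR9, of which Cd22, at 2.33, 2.35 and 2.53, was the greater part. Ms4a1 (CD20) had 3, 0 and 0 counts and Ighd was listed in no library. Control thus held Cd79b, Il7r and Dntt at 35 to 155 counts, with the markers of mature B cells at 10 counts or fewer each, apart from Cd22. Of 8 plasma cell genes, 3 were lower and 2 higher in TR1 and 2 and 2 in TR9, with medians of −4.68 and −3.75, or −1.31 and −0.61 with counts under 3 set to 3. Jchain, which joins antibody subunits, fell from 850 counts to 3 (TR1) and 8 (TR9), with log2 ratios of −8.20 (−10.45 to −6.62) and −6.63 (−7.85 to −5.65). Xbp1, a factor of secretory cells, rose from 589 to 1863 and 1875, and Derl3, of protein export from the endoplasmic reticulum, from 5 to 25 and 28, where the call in TR1 was lost with TPM scaling.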

How the data were processed

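RNA-seq of 3 libraries was analysed, grouped by sample titles, with 3 mice pooled in each. Filtered reads were aligned by the authors (BWA, Bowtie), and RSEM gave gene levels; the processing notes name mm9, and versions are not given in the sources used here. For each gene they deposited the expected count, an RSEM estimate that need not be whole (19.9% to 21.2% of listed genes were not), and the FPKM, scaled for length and library total. Length was deposited too and is given for Igll1 and Vpreb1. Gene IDs were named through RefSeq (GRCm38.p6), which matched 16698 of 16742, and an unlisted gene was taken as 0.

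Rounded expected counts of 2 libraries were compared in scipy 1.17.1 by a two-sided conditional Poisson test, exact, doubling the smaller tail, and adjusted by Benjamini-Hochberg over genes listed in either. Both thresholds for a call (false discovery rate 0.001, log2 ratio 1) follow the study's methods. A count of 0 gave a fold against 3 counts in place of 0, without counting error in the other library. Counts of 1 to 3 gave a ratio with its interval. Alternatives used edgeR 4.0.16 (TMM, upper quartile, and an exact test at an assumed coefficient of variation of 0.2), the median of ratios, TPM, the Audic–Claverie test, and other floors, filters and thresholds. The test was checked on simulated counts drawn from the Poisson model that it assumes, without variation between mice or libraries. That check thus gives no rate of false calls between real single libraries. The members and lists were chosen with earlier results of these data known, and some lists share genes. The genes named were the members, for each list up to 3 further genes lower and up to 3 higher in both leukemias by mean size of change, list genes with opposite calls, Rara and Tbl1xr1, and the 5 genes nearest in pattern. Others named from the lists (Vpreb2, Vpreb3, Tcf3, Ikzf1, Foxo1, Id3, Irf8, Spi1, Syk, Btk, Rag2, Cd22, Ms4a1, Ighd, Ptprc, Tcf4, Tcf7, Nkg7, Bst2 and the markers), and the neighbours on chromosome 16, were chosen after their values were seen. Some list genes that the rule names are not reported here. Protein sequences were not used here.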

Additional observations from a re-analysis of the deposited data

Results flagged for a closer look

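Several genes named in the report differed between the leukemia lines when TR9 was compared directly with TR1, by the exact Poisson test on reads of 1 library each. Among the members this was Igll1, higher in TR9 by a log2 ratio of 3.87 (95% interval 3.50 to 4.26). Irf8, Spi1 and Bcl2 were also higher in TR9, by 4.17, 1.33 and 1.31. Flt3 was lower in TR9 by a log2 ratio of −2.53, Id2 by −1.60 and the T cell and progenitor antigen gene Thy1 by −1.02, a call that was lost with TPM scaling. Ptprc, which encodes CD45 and its B cell form B220, was lower in TR9 by −2.01. It had 954 expected counts in control against 2369 in TR1 and 539 in TR9. These counts are per gene and do not separate B220 from other forms of CD45. Tcf7 was lower in TR9 by −2.16, Rara by −1.59, Rpl31-ps12 by −1.39 and Mpo by −1.11. Tcf4 was higher in TR9 by 1.21 and Kit by 1.10, and with TMM scaling Kit fell below the threshold, as Mpo did with TPM scaling. No replicate gives the spread between mice of 1 line.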

How the results depend on the processing

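No paired analysis was possible because each group has a single library, and for the same reason no library could be left out. Of 236 values of members under the alternatives, 222 kept their direction and their side of the threshold, 7 lost the call, 7 gained it and 0 changed sign. The sign could not move under other tests, thresholds, floors or filters. The scaling shifts, 0.25 at the largest, were smaller in size than every member ratio. In TR1, 2 members were higher under TMM scaling, the median of ratios and a false discovery rate of 0.05, in place of 1, since Vpreb1 then passed (adjusted p from 0.000906 to 0.00255, exact Poisson test). At that rate 5 members were lower in each leukemia, in place of 3, as Cd79a and Rag1 passed. In TR9, edgeR's exact test with its assumed variation left 1 lower (Cd79b) and 1 higher member (Igll1). Blnk lost its call in TR9 also under the upper quartile (adjusted p 0.00111) and the median of ratios. The members' median between TR9 and TR1, 3.17 over 5 genes, was 0.22 with a pseudocount of 1 FPKM and 0.63 with counts under 3 set to 3, an alternative chosen after seeing the data. Over all genes, edgeR's exact test called 992 lower and 657 higher in TR1 (2120 and 1318 by the Poisson test), 830 and 717 in TR9 (1766 and 1527), and 94 and 188 between TR9 and TR1 (363 and 681). A log2 ratio of at least 2 left 1133 and 685, 928 and 738, and 135 and 283. Depth limits Ebf1, Cd79a and Rag1, which had under 10 counts in every library and were not called at a false discovery rate of 0.001.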

Other observations

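Further marker lists were read for other lymphoid cells, beside the shares called over all genes. These were 13.0% lower and 8.09% higher in TR1, and 10.8% and 9.37% in TR9. Of 14 T and NK cell genes, 1 was lower and 3 were higher in TR1, and 1 was lower and 1 higher in TR9, with medians of −0.89 and −1.79, or −0.06 and 0.06 with counts under 3 set to 3. Thy1 rose from 34 expected counts in control to 1634 in TR1 and 742 in TR9, with log2 ratios of 5.56 and 4.54, while Cd4 fell from 25 to 0 and 3. Nkg7, a granule protein gene of NK cells, rose in TR1, from 412 to 857 counts, a call that was lost with TPM scaling. Tcf7, a transcription factor of the T lineage, rose in TR1, from 12 to 68 counts with a log2 ratio of 2.47 (1.58 to 3.50), and had 14 counts in TR9, where it was not called. Among the genes of the CD3 complex, Cd3e and Cd3g had at most 2 counts in any library, Cd3d had 9.51, 10.34 and 11.2, and Cd247 had 98, 58 and 64. Of 8 plasmacytoid dendritic cell genes, 7 were listed, with 1 lower and 1 higher in TR1 and 0 called in TR9, and the medians were −1.3 and −1.73, or −0.76 and −0.64. Tcf4, which encodes the E protein E2-2, fell in TR1, from 349.78 counts in control to 134.77, and Bst2, an interferon-induced surface protein gene, rose from 129 to 286, also not called with TPM scaling. Siglech, the defining receptor of these cells, had 7, 0 and 2 counts.

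The summed FPKM of the 9 members divided over the libraries as 6.83% (control), 7.24% (TR1) and 85.9% (TR9), and Igll1 alone made up 97.1% of the sum in TR9. Among genes with at least 20 counts in a library, the 5 with the nearest shares over the 3 libraries were Gbp6, Col16a1, 1700030C10Rik, Sytl2 and Fam169a. Gbp6, an interferon-induced GTPase gene, had 11.4, 13 and 130.84 expected counts, with shares of 7.01%, 7.74% and 85.3%. Likeness over 3 libraries is a description and carries no test.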
